A study of Rattus norvegicus with 12 samples.

Results

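The transcripts described here belong to 9 enzymes of sulfur amino acid and methyl group metabolism in the rat liver. They were chosen by gene symbol, with earlier results of these data known: Mat1a, Gnmt, Pemt, Ahcy, Bhmt, Cbs, Cth, Cdo1 and Csad. All 9 symbols were found on the array, each through exactly 1 probe set that the platform annotation assigns to that gene alone, out of 14217 genes measured in this way. Hepatocytes were freshly isolated from rat livers by a collagenase perfusion in 2 steps and lysed for RNA with no culture step. The rats carry the strain label Fischer 334, and every value is 1 array of 1 donor animal. Livers came from heart-beating donors or from animals without a heartbeat for 4, 16 or 30 h, with 3 animals in each of the 4 groups, so that n = 3 for every group mean below. No genotype or drug differed between the groups per the labels, and age, sex and the manner of death are not given in them. The cells analysed are those that came through the isolation procedure, and any selection for living cells is not given in the sources used here.

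In the methionine cycle, methionine is joined to ATP to give S-adenosylmethionine, the methyl donor of the cell. Transfer of its methyl group leaves S-adenosylhomocysteine, which is split to homocysteine. Homocysteine either regains a methyl group to become methionine again or is passed through cystathionine to cysteine, and in the liver cysteine is the source of taurine, which is conjugated to bile acids. Hepatocytes are the main site of these reactions in the body, and several of the enzymes named here are made at high levels in few other cell types.

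All signals are on the log2 scale and were normalized over the arrays, so they are relative and not absolute amounts. The 9 probe sets read between 7.98 and 12.75 on the 12 arrays, where the lowest signal of any probe set was 2.99 and the highest 14.51. Of 16 measured hepatocyte markers 0 were called at 4 h, 1 was higher at 16 h, and 1 was higher and 3 were lower at 30 h. Their mean log2 signal was 12.49 to 12.56 in heart-beating donors and 12.22 to 12.38 at 30 h, with Alb at a difference of 0.00 (SE 0.05) in each comparison with heart-beating donors. The asialoglycoprotein receptor genes Asgr2 (-1.33, SE 0.16) and Asgr1 (-1.14, SE 0.17) fell at 30 h, and the transcription factor gene Hnf4a rose at 16 h (0.61, SE 0.11) and 30 h (0.76, SE 0.11). Of 14 macrophage markers 6 were lower at 16 h and 9 at 30 h, and their mean signal was 8.49 to 8.54 in heart-beating donors against 7.72 to 7.97 at the latest time. There, of 13 stellate cell and fibroblast markers 6 were higher (7.03 to 7.35 against 7.44 to 7.81), as were 4 of 7 red cell markers (7.14 to 7.30 against 7.94 to 8.47). At 16 h 3 of the 7 red cell markers were already higher (7.97 to 8.17), with Hbb at 1.85 (SE 0.31). Of 11 liver endothelial markers 3 were higher at 16 h, with Lyve1 at 0.88 (SE 0.13), and 1 at 30 h. Of the stellate cell and fibroblast markers 2 were higher and 1 lower at 16 h. Over all 14217 genes, with the brightest probe set of each, 4.3% were higher and 1.3% lower at 16 h. At 30 h 12.5% were higher and 10.5% lower, and at 4 h 0.00703% and 0%. In these bulk samples fewer hepatocytes and less RNA per hepatocyte cannot be told apart, and the part of these marker shifts in the results below was not tested. RNA integrity also differed. The excess of the 3' over the 5' Gapdh control, which grows as RNA is broken down, had a log2 mean of 0.39 ± 0.08 (SD) for heart-beating animals, 0.38 ± 0.10 for the 4 h group, 1.05 ± 0.20 for the 16 h group and 1.97 ± 0.29 for the 30 h group. Compared with heart-beating animals, an exact two-sided permutation test gave p = 1 for the 4 h group and p = 0.1 for each later group, the smallest value that 3 arrays against 3 can reach. The same excess for Actb averaged 1.85 ± 0.05 in heart-beating animals, 1.71 ± 0.15 in the 4 h group (exact permutation p = 0.2), 2.21 ± 0.33 in the 16 h group (p = 0.2) and 2.87 ± 0.11 in the 30 h group (p = 0.1). By Actb the 16 h group overlapped the heart-beating donors, since 16 h animal 1 (1.886) lay below donor 2 (1.899).

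The first question of the design was how hepatocyte transcripts differ between each interval after death and the heart-beating state. At 30 h 4 of the 9 members were lower (Bhmt, Pemt, Ahcy and Cdo1) and 0 were higher, where a member was called at an adjusted p under 0.05 over all 31042 probe sets tested. Over the whole array 9.36% of the probe sets were lower and 10.4% higher in that comparison, and among the upper 50% of probe sets by mean signal the shares were 13.7% and 16.5%. The median log2 difference of the 9 members was -0.08, against 0.01 over all probe sets. At 16 h 1 member was higher (Mat1a) and 1 lower (Cth), beside 3.18% of all probe sets higher and 1.49% lower. Among the upper 50% by mean signal 5.92% were higher and 2.09% lower at 16 h. At 4 h 0 of 9 were called by limma and 0 had an unadjusted p under 0.05, beside 0.00966% of all probe sets called higher and 0.0129% called lower. The member differences at 4 h ran from -0.79 to 0.24, with adjusted p from 0.96 to 0.996.

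**Figure D1:**
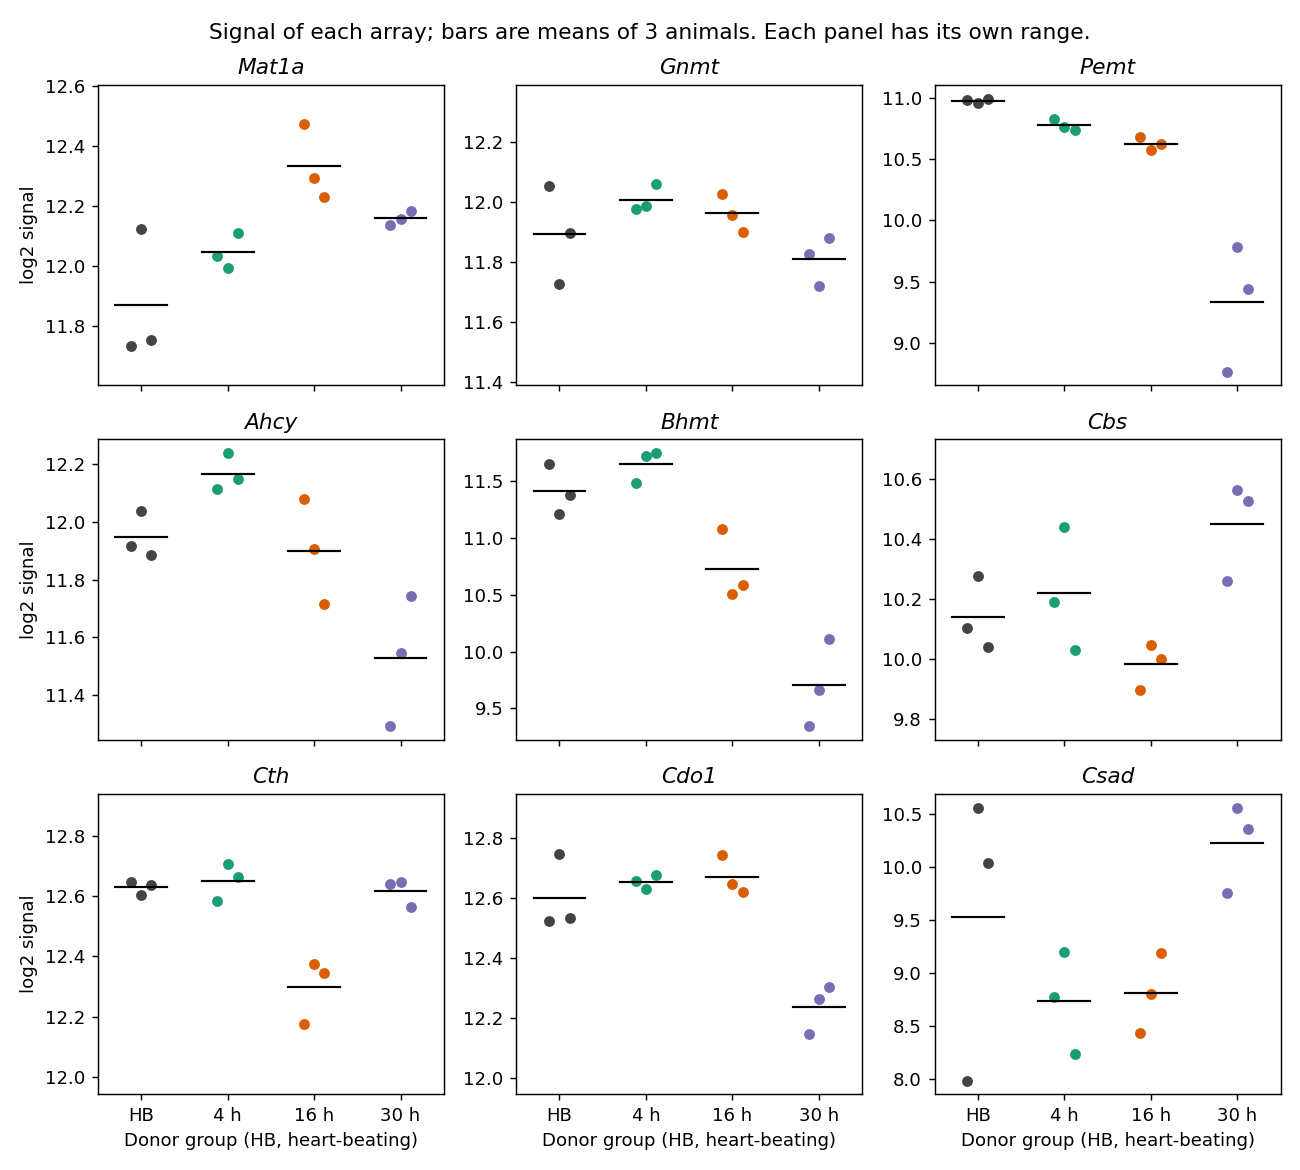
Log2 signal of the 9 members on each of the 12 arrays. Points are single animals in the order of their number, horizontal bars are means of 3 animals, and the vertical range differs between panels. Bhmt, Pemt and Cdo1 have their 3 lowest values at 30 h, and Cth has its 3 lowest at 16 h. Csad spans 7.98 to 10.56 among heart-beating donors alone.

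Mat1a (probe set 1371031_at) makes the liver form of methionine adenosyltransferase, which forms S-adenosylmethionine. Its log2 signals were 11.73, 12.12 and 11.76 in heart-beating donors, 12.03, 11.99 and 12.11 at 4 h, 12.47, 12.29 and 12.23 at 16 h, and 12.14, 12.16 and 12.18 at 30 h. The 3 values at 16 h all lay above the other 9 arrays, and donor 2 stood well above the other 2 heart-beating donors. Mat1a rose 1.38-fold at 16 h (log2 difference 0.46, SE 0.10, adjusted p = 0.0181). The call ended when any of 4 single animals was left out: the adjusted p was 0.07 without donor 1 (difference 0.39), 0.0916 without donor 3 (0.40), 0.0846 without 16 h animal 1 (0.39) and 0.0639 without 16 h animal 2 (0.48). At 30 h the difference was 0.29 (SE 0.10, adjusted p = 0.056), which did not pass, although it did so after cyclic loess or a further quantile normalization (0.43 for each), among the upper 50% of probe sets by mean (0.29, adjusted p = 0.0462) and without heart-beating donor 2 (0.42). Between 16 h and 30 h it differed by -0.17 (SE 0.10, adjusted p = 0.29).

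Gnmt (1387672_at), glycine N-methyltransferase, uses up S-adenosylmethionine by methylating glycine and is abundant in liver. Its signal moved least of all members: the 4 group means lay within 0.20 log2 units. The heart-beating donors read 12.05, 11.73 and 11.90, the 4 h animals 11.97, 11.99 and 12.06, the 16 h animals 12.03, 11.96 and 11.90, and the 30 h animals 11.83, 11.72 and 11.88. The 30 h values overlapped those of heart-beating donors and lay below those of the other 2 times. No comparison passed, the largest being 30 h against 4 h (-0.20, SE 0.08, adjusted p = 0.12), and the 95% interval of the difference between 30 h and heart-beating donors ran from -0.26 to 0.09.

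Pemt (1369581_at), phosphatidylethanolamine N-methyltransferase, spends S-adenosylmethionine on making phosphatidylcholine in the liver. Its signals were 10.98, 10.96 and 10.99 in heart-beating donors and 10.82, 10.77 and 10.74 at 4 h. They were 10.68, 10.58 and 10.62 at 16 h, and 8.77, 9.78 and 9.44 at 30 h. The 4 groups did not overlap and stood in the order of the interval, with a narrow spread in the first 3 (SD 0.02, 0.04 and 0.05) and a wide one at 30 h (SD 0.52). Pemt fell 3.13-fold at 30 h against heart-beating donors (log2 difference -1.64, SE 0.17, adjusted p = 5.21e-05) and 2.45-fold against 16 h (-1.29, SE 0.17, adjusted p = 0.000856). The smaller differences at 4 h (-0.20, adjusted p = 0.996) and at 16 h (-0.35, adjusted p = 0.299) did not pass with the spread of all 4 groups pooled. In a fit without the 30 h arrays the 16 h difference of -0.35 had an adjusted p of 0.00465. It also passed with only the 2 groups compared (adjusted p = 0.0108) and without 30 h animal 1, the animal with the lowest Pemt signal (adjusted p = 0.0208). The fall at 30 h was called under each of 21 alternatives other than the RNA integrity covariate below, with values from -1.87 to -1.36.

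Ahcy (1367798_at), adenosylhomocysteinase, clears the S-adenosylhomocysteine that methyl transfer leaves. Its signals were 11.92, 12.04 and 11.88 in heart-beating donors and 12.12, 12.24 and 12.15 at 4 h. At 16 h they were 12.08, 11.91 and 11.71, and at 30 h 11.29, 11.55 and 11.74. All 4 h values lay above, and all 30 h values below, those of heart-beating donors. The 16 h values overlapped both the heart-beating and the 30 h values. Ahcy fell 1.34-fold at 30 h against heart-beating donors (log2 difference -0.42, SE 0.11, adjusted p = 0.018) and 1.56-fold against 4 h (-0.64, SE 0.11, adjusted p = 0.00143). The call against heart-beating donors ended after a further quantile normalization (-0.23, adjusted p = 0.097), without heart-beating donor 2 (-0.37) and without 30 h animal 1 (-0.30). From 16 h to 30 h the difference of -0.37 (SE 0.11, adjusted p = 0.051) did not pass. It passed in 5 of 21 alternatives other than the covariate. At 4 h the difference from heart-beating donors was 0.22 (SE 0.11, adjusted p = 0.96).

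Bhmt (1387665_at), betaine-homocysteine methyltransferase, remakes methionine from homocysteine with a methyl group from betaine, an oxidation product of choline. Its signals were 11.65, 11.21 and 11.38 in heart-beating donors and 11.48, 11.72 and 11.74 at 4 h. At 16 h they read 11.08, 10.50 and 10.59, and at 30 h 9.35, 9.66 and 10.11. The 16 h values lay below all heart-beating and 4 h values and above all 30 h values. Among the comparisons with heart-beating donors, Bhmt had the largest called change of the members: it fell 3.26-fold at 30 h against heart-beating donors (log2 difference -1.71, SE 0.19, adjusted p = 6.76e-05). It fell 1.9-fold from 4 h to 16 h (-0.93, SE 0.19, adjusted p = 0.00993) and 2.02-fold from 16 h to 30 h (-1.02, SE 0.19, adjusted p = 0.00513). The former call ended without 16 h animal 2 (-0.81). Against heart-beating donors the 16 h difference of -0.69 (SE 0.19, adjusted p = 0.0556) did not pass, and it passed in 9 of 22 alternatives other than the covariate, with values from -0.87 to -0.57 over those 22. The fall at 30 h was called in all 21 alternatives other than the covariate (-1.91 to -1.53). Bhmt2, whose product methylates homocysteine from another donor and is a close relative of Bhmt, differed by 0.08 (SE 0.07, adjusted p = 0.471) at 30 h. The files do not show whether either probe set also binds transcripts of the other gene.

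**Figure D2:**
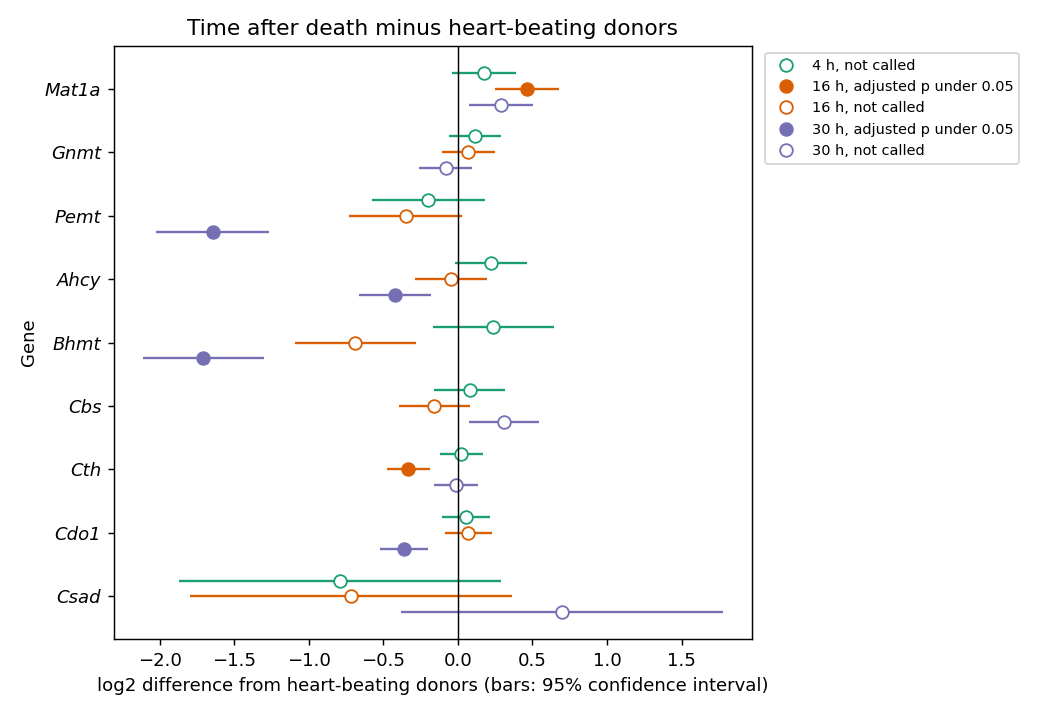
Log2 difference of each member between 4, 16 or 30 h after death and heart-beating donors, in order of the enzymes' place in the pathway. Points are differences of group means of 3 animals, horizontal bars are 95% confidence intervals from the moderated fit, and filled points passed an adjusted p of 0.05. The filled points at 30 h are Pemt (-1.64), Ahcy (-0.42), Bhmt (-1.71) and Cdo1 (-0.36), and those at 16 h are Mat1a (0.46) and Cth (-0.33). The 3 comparisons share the heart-beating arrays.

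Both transsulfuration enzymes rose from 16 h to 30 h. Cbs (1387178_a_at), cystathionine beta-synthase, joins homocysteine and serine. Its probe set can bind several transcripts of the gene and read 10.10, 10.28 and 10.04 in heart-beating donors, 10.19, 10.44 and 10.03 at 4 h, 9.90, 10.05 and 10.0009 at 16 h, and 10.26, 10.56 and 10.53 at 30 h. The 30 h values lay above the 16 h values and overlapped those of heart-beating donors and of 4 h. Cbs rose 1.38-fold from 16 h to 30 h (log2 difference 0.47, SE 0.11, adjusted p = 0.0171), a call that ended without 16 h animal 1 (0.43). Against heart-beating donors the 30 h difference was 0.31 (SE 0.11, adjusted p = 0.0656), which did not pass. It did pass after cyclic loess (0.36) or a further quantile normalization (0.45) and without 30 h animal 1 (0.40) or 4 h animal 2 (0.31).

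Cth (1367838_at), cystathionine gamma-lyase, splits cystathionine and releases cysteine. Its signals were 12.65, 12.60 and 12.64 in heart-beating donors, 12.58, 12.71 and 12.67 at 4 h, 12.18, 12.37 and 12.34 at 16 h, and 12.64, 12.65 and 12.56 at 30 h. The 3 values at 16 h were below all 9 others, which overlapped among themselves. Cth fell 1.26-fold at 16 h against heart-beating donors (log2 difference -0.33, SE 0.07, adjusted p = 0.0141) and 1.28-fold against 4 h (-0.35, SE 0.07, adjusted p = 0.00708). From 16 h to 30 h it rose 1.25-fold (0.32, SE 0.07, adjusted p = 0.00989). At 30 h it differed from heart-beating donors by -0.01, with a 95% interval from -0.16 to 0.13. The fall at 16 h against heart-beating donors was no longer called after cyclic loess (-0.30), without heart-beating donor 3 (-0.33) or without 16 h animal 1 (-0.27), the animal with the lowest value. The rise from 16 h to 30 h was not called without that animal (0.26) or with only the 2 groups compared.

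The 2 members of taurine synthesis differed in their spread. Cdo1 (1367755_at), cysteine dioxygenase, oxidizes cysteine to cysteine sulfinate. It read 12.52, 12.75 and 12.53 in heart-beating donors, 12.66, 12.63 and 12.67 at 4 h, 12.74, 12.65 and 12.62 at 16 h, and 12.15, 12.26 and 12.30 at 30 h. The 30 h values lay below all 9 others, which overlapped. Cdo1 fell 1.29-fold at 30 h against heart-beating donors (log2 difference -0.36, SE 0.07, adjusted p = 0.00392). It fell 1.35-fold against 16 h (-0.43, SE 0.07, adjusted p = 0.00328) and 1.33-fold against 4 h (-0.42, SE 0.07, adjusted p = 0.0016). After cyclic loess the first of these was -0.20 (adjusted p = 0.0659).

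Csad (1398286_at), cysteine sulfinate decarboxylase, forms hypotaurine, from which taurine is made. It read 7.98, 10.56 and 10.04 in heart-beating donors, 8.77, 9.19 and 8.24 at 4 h, 8.44, 8.80 and 9.18 at 16 h, and 9.75, 10.56 and 10.36 at 30 h. Heart-beating donor 1 was lower than every other array, while donors 2 and 3 lay above all 4 h and 16 h values. Among the 31042 probe sets, 14 had a larger SD than Csad (1.36) in heart-beating donors, and its SD of 0.37 to 0.48 in the other groups was also wide. The 30 h values lay above all 4 h and 16 h values and overlapped those of heart-beating donors. Its differences from heart-beating donors were -0.79 at 4 h, -0.72 at 16 h and 0.70 at 30 h (SE 0.50 for each, adjusted p = 0.996, 0.474 and 0.377). The 30 h group exceeded the 4 h group by 1.49 (SE 0.50, adjusted p = 0.0549) and the 16 h group by 1.41 (SE 0.50, adjusted p = 0.0926). None of these passed. These values turned on single donors. Without heart-beating donor 1 the difference was -1.56 at 4 h (adjusted p = 0.638), -1.49 at 16 h (adjusted p = 0.0244) and -0.08 at 30 h (adjusted p = 0.906). Without donor 2 it was -0.28, -0.20 and 1.21, and without donor 3 it was -0.54, -0.46 and 0.95, none of which passed. In the fit without donor 1 the 30 h group exceeded the 16 h group with an adjusted p of 0.00782 and the 4 h group with one of 0.00245. The excess of 30 h over 4 h was also called without heart-beating donor 2, among the brighter probe sets, with 1 probe set per gene, with only these groups compared and after a further quantile normalization.

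The other comparisons set the intervals after death against each other. From 4 h to 16 h 2 members fell (Bhmt and Cth) and 0 rose, beside 2.52% of all probe sets lower and 5.31% higher. From 16 h to 30 h 3 fell (Bhmt, Cdo1 and Pemt) and 2 rose (Cbs and Cth), beside 5.95% lower and 4.29% higher. From 4 h to 30 h 4 fell, the same 4 genes as against heart-beating donors, and 0 rose, beside 8.62% lower and 10.3% higher. In that last comparison the falls were 3.84-fold for Bhmt (-1.94, SE 0.19, adjusted p = 2.75e-05) and 2.72-fold for Pemt (-1.45, SE 0.17, adjusted p = 0.00012). Comparisons that share a group of arrays are not independent of each other.

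RNA integrity moved with the falls at 30 h. The Gapdh control excess at the 3' end was 2.30, 1.82 and 1.79 in 30 h animals 1, 2 and 3, while the 16 h animals lay between 0.85 and 1.25, the 4 h animals between 0.27 and 0.46, and the heart-beating donors between 0.31 and 0.45. Animal 1, with the largest difference, also had the lowest 30 h signal of Bhmt, Pemt, Ahcy and Cdo1, and likewise of Mat1a, Cbs and Csad, which were not called lower. By the Actb control the order was the other way: animal 1 had the smallest excess at 30 h (2.75, against 2.92 and 2.95). With the Gapdh difference as a covariate 0 of the 9 members were called in any of the 6 comparisons. Of all 31042 probe sets the same fit called 781 higher and 521 lower from 4 h to 16 h. At 16 h against heart-beating donors it called 45 higher and 25 lower, and at 4 h 4 higher and 5 lower. From 16 h to 30 h it called 4 in each direction, and from 4 h to 30 h 0. In the comparison of 30 h with heart-beating donors limma then called 0 of all 31042 probe sets, with 4438 of them, and 0 of the members, at an unadjusted p under 0.05. The log2 difference of Bhmt at 30 h became 0.06 (SE 0.52), that of Pemt 0.04 (SE 0.47), that of Ahcy 0.52 (SE 0.33) and that of Cdo1 -0.03 (SE 0.27). The 16 h difference of Cth became -0.43 (SE 0.12, adjusted p = 0.0884) and that of Mat1a 0.54 (SE 0.18, adjusted p = 0.127), both larger in size than without the covariate. The fall of Bhmt from 4 h to 16 h became -0.18 (SE 0.25) and that of Cth -0.45 (SE 0.12), neither of them called. Because the Gapdh differences of the 16 h and of the 30 h arrays overlap neither each other nor those of the earlier groups, RNA integrity by this control and the interval of 16 h or 30 h cannot be told apart. The place of each probe set on its transcript was not used here.

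**Figure D3:**
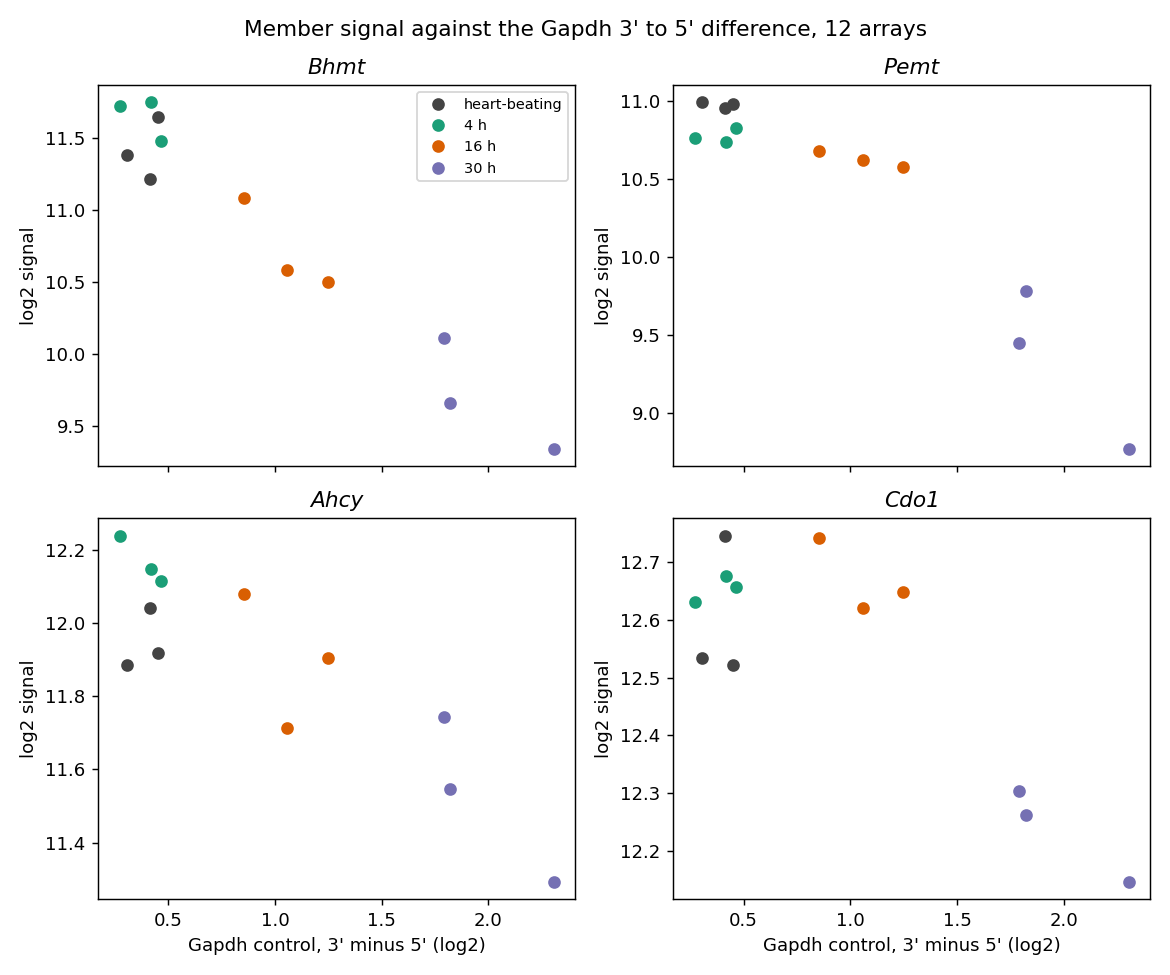
Log2 signal of the 4 members that fell at 30 h against the Gapdh 3' minus 5' control difference of the same array, for 12 arrays of 4 groups. The 30 h arrays (1.79 to 2.30 on the horizontal axis) hold the lowest Bhmt, Pemt and Cdo1 signals, and 30 h animal 1, at 2.30, is lowest in each panel.

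Bhmt and Pemt had the largest falls at 30 h, while Cth and Mat1a were the members called at 16 h, in opposite directions. The 250 bases before their annotated starts are therefore given from RefSeq on build GRCr8, where 8 of the 9 members matched (Cdo1 did not). Bhmt lies at chr2:26614430-26614679 on the minus strand, Pemt at chr10:45341948-45342197 on the minus strand, Cth at chr2:249661067-249661316 on the minus strand and Mat1a at chr16:17016918-17017167 on the plus strand. The Pemt window belongs to a start that lies inside the annotated gene, not at its outer end. The same holds for the windows of Gnmt and Csad, which enter the counts below. Capitals mark matches on either strand to the letters searched. They were TATAAA for the TATA box, CCAAT for the motif of that name, AGGTCA for the hexamer of nuclear receptors, CACGTG for the E-box and TTATGTAA for the D-box. No matches overlapped in these 4 windows, and Mat1a held none.
Bhmt: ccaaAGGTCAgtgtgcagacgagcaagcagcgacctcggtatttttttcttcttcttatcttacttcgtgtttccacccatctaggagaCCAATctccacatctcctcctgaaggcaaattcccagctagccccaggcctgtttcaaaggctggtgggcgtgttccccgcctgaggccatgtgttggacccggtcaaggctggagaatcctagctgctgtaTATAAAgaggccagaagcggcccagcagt
Pemt: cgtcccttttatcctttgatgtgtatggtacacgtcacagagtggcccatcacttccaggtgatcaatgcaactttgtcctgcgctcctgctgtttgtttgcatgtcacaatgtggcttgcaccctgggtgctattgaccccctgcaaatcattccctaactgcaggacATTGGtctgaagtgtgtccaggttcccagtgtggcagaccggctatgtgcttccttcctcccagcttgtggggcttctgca
Cth: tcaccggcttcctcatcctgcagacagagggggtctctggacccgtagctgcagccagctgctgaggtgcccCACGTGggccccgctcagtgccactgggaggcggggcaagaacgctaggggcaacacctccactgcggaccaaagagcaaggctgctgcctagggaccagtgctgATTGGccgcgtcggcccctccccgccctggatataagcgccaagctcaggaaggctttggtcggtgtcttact
Mat1a: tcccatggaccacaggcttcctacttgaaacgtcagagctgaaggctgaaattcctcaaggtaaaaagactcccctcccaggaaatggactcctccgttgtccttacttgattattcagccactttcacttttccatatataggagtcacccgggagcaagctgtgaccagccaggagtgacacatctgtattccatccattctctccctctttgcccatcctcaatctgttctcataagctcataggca

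Bhmt was the only member with TATAAA, at 29 to 24 bases before the start, and 12.9% of 33469 promoters of the same length held it. AGGTCA was found in Bhmt (246 to 241 bases before the start), Gnmt and Ahcy, that is in 2 members that fell at 30 h and 1 that was called in no comparison, and in 14.1% of all promoters. CCAAT was found in 5 of the 8 (Bhmt, Gnmt, Cbs, Cth and Pemt) and in 34% of all. CACGTG was found in Cth alone, 178 to 173 bases before the start, and in 5.59% of all, while 0 of the 8 held TTATGTAA, which 0.828% of all held. GC content ranged from 48% in Mat1a to 76% in Csad, beside a median of 51.2% over all promoters. These matches describe the letters of the windows only.

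For the 3 members whose group means spanned at least 1 log2 unit, the probe sets of other genes with the most similar course over the 12 arrays were found. Likeness was the root mean square difference after each probe set was centred on its heart-beating mean, with a smaller value for a closer course. Nearest to Bhmt were Glrx (0.14), a glutaredoxin, Rpl7 (0.16), a ribosomal protein, and Vdac1 (0.19), a channel of the outer mitochondrial membrane. Glrx, for example, differed from heart-beating donors by 0.13 at 4 h, -0.79 at 16 h and -1.67 at 30 h. Nearest to Pemt were St13 (0.12), a co-chaperone, Papola (0.15), a poly(A) polymerase, and Bsg (0.15), a membrane glycoprotein, with 30 h differences of -1.49, -1.69 and -1.56. For Csad the nearest were far less close: 2 probe sets of Me1, the cytosolic malic enzyme (0.61 and 0.62), and Nrep (0.63). The Me1 probe set at 0.61 differed by -0.69 at 4 h, -0.39 at 16 h and 0.72 at 30 h, but its heart-beating values lay within 8.52 to 9.03, without the low donor of Csad.

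**Figure D4:**
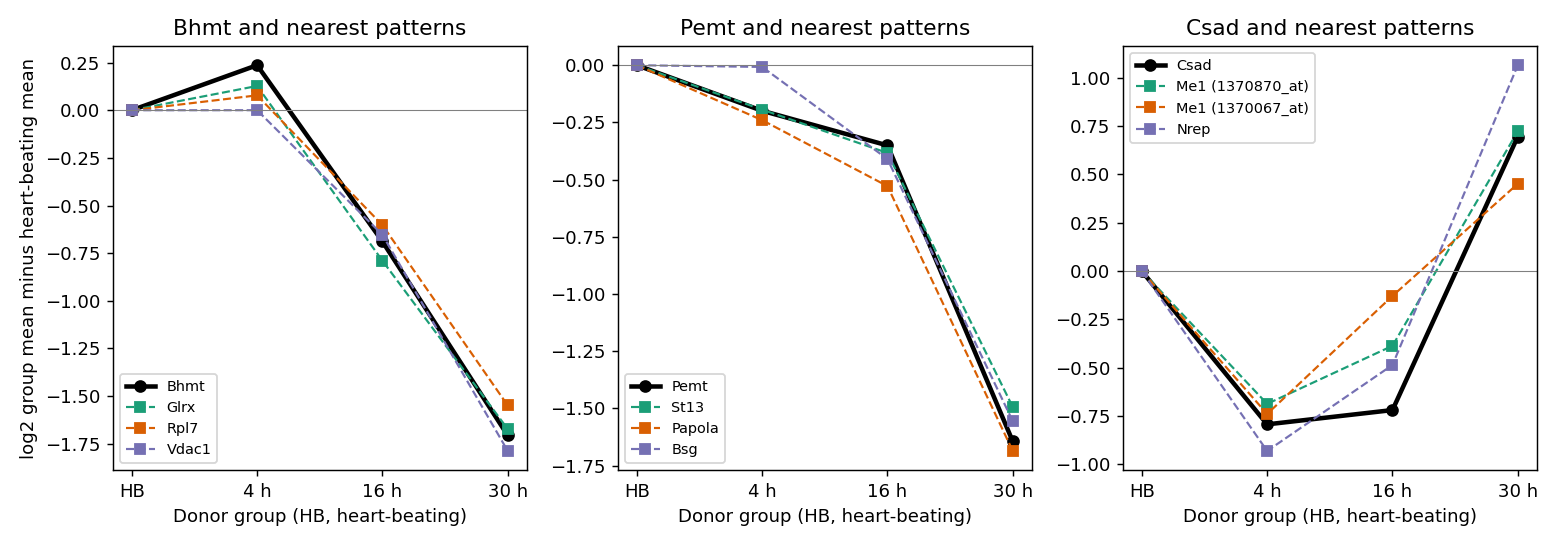
Group means minus the heart-beating mean, in log2 units, of Bhmt, Pemt and Csad (black) and of the 3 probe sets closest to each over 12 arrays (coloured, dashed). The Bhmt and Pemt courses are followed within 0.19 and 0.15 log2 units (root mean square over arrays), the Csad course only within 0.61 to 0.63. In the Csad panel the 2 Me1 lines are told apart by their probe set.

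Other genes around the cycle were counted from lists, with the brightest probe set of each gene. These lists too were chosen with earlier results of these data known. Over all 14217 genes taken in this way, 4.3% were higher and 1.3% lower at 16 h, and 12.5% were higher and 10.5% lower at 30 h. Of 11 measured methyltransferases that use S-adenosylmethionine 5 fell and 1 rose at 30 h, with a median of -0.27 against 0.01 over all genes. Gamt, which makes creatine, fell by 0.98 on the log2 scale (SE 0.10), As3mt, which methylates arsenic, by 0.94 (SE 0.14), and Coq5, of ubiquinone synthesis, by 0.37 (SE 0.10). None of these 11 was called at 16 h. Of 5 genes for other forms of methionine adenosyltransferase, adenosine kinase and relatives of Ahcy, 0 were called at 30 h and 1 at 16 h: Mat2a, the form made in most tissues, rose by 0.37 (SE 0.09, adjusted p = 0.033).

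Among 14 genes of homocysteine remethylation, folate and choline oxidation 4 rose and 3 fell at 30 h. Ftcd, of histidine breakdown into the folate pool, fell by 0.74 (SE 0.12) and Aldh7a1, which oxidizes betaine aldehyde, by 0.40 (SE 0.07), while Shmt2, the mitochondrial serine hydroxymethyltransferase, rose by 0.36 (SE 0.08). At 16 h Mthfs rose by 0.44 (SE 0.09), and 13 of the 14 did not pass. Among 11 genes of choline and phosphatidylcholine 3 rose at 30 h and 0 fell: Lpcat3 by 0.40 (SE 0.08), Slc44a1, a choline transporter, by 0.51 (SE 0.11) and Pcyt1a, which controls the other route to phosphatidylcholine beside Pemt, by 0.50 (SE 0.12). At 16 h 1 of them fell, the choline kinase Chka (-1.45, SE 0.21).

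Of 17 genes for the fates of cysteine, glutathione and sulfide 4 fell and 1 rose at 30 h. Gclm, a subunit of the enzyme that starts glutathione synthesis, fell by 1.09 (SE 0.20) and Nfs1, which takes sulfur from cysteine, by 0.47 (SE 0.10), while Mpst, of mercaptopyruvate breakdown, rose by 0.59 (SE 0.09). At 16 h Gss, which completes glutathione, rose by 0.26 (SE 0.07). Of 8 genes for taurine formation, conjugation and transport 1 fell and 1 rose at 30 h: Ado, which oxidizes cysteamine to hypotaurine, fell by 0.27 (SE 0.07), and Slc27a5, which activates bile acids for conjugation, rose by 0.32 (SE 0.08). Gadl1, a relative of Csad, rose by 0.58 (SE 0.13) at 16 h and was the only one of the 8 called then. Of 15 genes for methionine salvage and polyamines 3 fell and 4 rose at 30 h, with Oaz1 at -0.62 (SE 0.08) and Adi1 at -0.68 (SE 0.12) lower and Enoph1 at 0.33 (SE 0.07) higher. Amd1, which makes the aminopropyl donor from S-adenosylmethionine, rose by 0.72 (SE 0.13) at 16 h. The 30 h medians were -0.25 for the list of cysteine fates, -0.08 for salvage and polyamines, and -0.07 for taurine. They were 0.07 for remethylation, folate and choline oxidation, 0.05 for choline and phosphatidylcholine, and 0.01 for the list with Mat2a. At 4 h 0 genes of these 7 lists were called by limma.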

How the data were processed

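Total RNA of hepatocytes from 12 donor rats was measured on 1 Affymetrix array each. The authors deposited log2 signals by probe set, made with RMA, and also used limma, per the submitters' processing notes. Neither version is stated there. RMA brings the arrays to a shared distribution of signals, so a loss common to all transcripts would not show. The table held 31099 probe sets, of which 57 controls were left out of the tests. Depth does not apply to intensities, and the number of arrays limits the precision.

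Members were the probe sets with 1 gene symbol that matched. Groups came from sample titles. limma 3.58.1 in R 4.3.3 fitted a mean for each group to the 31042 probe sets (lmFit, eBayes; 8 residual and 4.93 prior degrees of freedom), with Benjamini-Hochberg adjustment over the whole table and no filter on dim probe sets. Separate donor animals are the replicates, per the labels. The fit was tested on simulated data. Named were all members, up to 3 called genes with the smallest p in each list and comparison with heart-beating donors, Alb, and the 3 nearest courses. List genes absent by symbol were sought through gene identifiers (GRCr8). The members and lists were chosen with earlier results of these data known. Alternatives were median centring, cyclic loess, a further quantile normalization, the upper 50% by mean, 1 probe set or the mean per gene, a variance trend with robust settings, only the groups compared, no 30 h arrays, the animal number as a replicate block, the Gapdh difference as a covariate, and leaving out each array.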

Additional observations from a re-analysis of the deposited data

How the results depend on the processing

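Each group held 3 animals, 1 array each, and comparisons that share a group are not independent. Signals are relative and not absolute amounts, RNA integrity by the Gapdh control followed the interval from 4 h on, and each member rests on 1 probe set. Pemt at 30 h and Csad in heart-beating donors had wide spreads, which the pooled estimate carries into their other comparisons.

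When the Gapdh difference entered the model, the count of called members was 0 in each direction of each comparison. Of all 31042 probe sets it left 781 higher and 521 lower from 4 h to 16 h, and 0 called at 30 h against heart-beating donors. Then 6 called differences changed sign: at 30 h against heart-beating donors Bhmt (0.057), Ahcy (0.52) and Pemt (0.041), against 4 h Ahcy (0.30) and Pemt (0.25), and against 16 h Bhmt (0.0068), none past the threshold. Members called higher at 30 h against heart-beating donors numbered 0 in the main analysis, 2 after cyclic loess, 2 after a further quantile normalization, 1 among the upper 50% by mean and 1 with the replicate block. In the same order 3226, 3168, 3346, 2716 (of 15521) and 2981 of all probe sets were higher. Members called lower at 16 h numbered 1 in the main analysis, 2 after quantile normalization, among the upper 50% or with trend and robust settings, and 3 with only the groups compared or with no 30 h arrays. In the same order 461, 577, 408 (of 15521), 464, 797 and 958 of all probe sets were lower, so the whole array moved with the setting too. Members called higher at 30 h against 4 h numbered 0, but 2 after quantile normalization, and 1 among the upper 50%, with the brightest probe set per gene, with only the groups compared or with the replicate block. In the same order 3188, 3257, 2895 (of 15521), 1932 (of 14217), 2319 and 3007 of all probe sets were higher. Members called higher from 4 h to 16 h numbered 1 with only the groups compared, beside 2240 of all probe sets, against 1647 in the main analysis. The cause of these changes was not tested. The replicate block added Cbs at 30 h against heart-beating donors (0.31, adjusted p = 0.0314) and Csad at 30 h against 4 h (1.49, adjusted p = 0.0251). Deviations of same-numbered animals correlated at -0.27 to 0.11 over 18 pairs, and those of different-numbered animals at -0.23 to 0.24 over 36 pairs. The main fit did not pair animals by number, and whether a number stands for a shared batch cannot be told from these values. Leaving out each array in turn gave 0 to 1 higher and 0 to 3 lower at 16 h, 0 to 1 higher and 3 to 4 lower at 30 h, 0 to 1 higher and 1 to 2 lower from 4 h to 16 h, 0 to 3 higher and 3 to 4 lower from 16 h to 30 h, and 0 to 1 higher and 4 lower from 4 h to 30 h. Over all probe sets the same fits gave 300 to 1350 higher and 148 to 807 lower at 16 h. At 30 h the ranges were 2135 to 3260 and 2067 to 2839, and from 4 h to 16 h 784 to 2032 and 297 to 1224. From 16 h to 30 h they were 498 to 1945 and 767 to 2193, and from 4 h to 30 h 2403 to 3306 and 1987 to 2627. At 4 h the count of members was 0 in each direction in all these fits, beside 1 to 8 of all probe sets higher and 0 to 6 lower. Median centring and the mean of probe sets per gene left every member count within 1.5 times of its main value.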
